A study of Arabidopsis thaliana with 20 samples.

Results

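DNA methylation in the swi3b mutant was compared with that in wild-type Col-0, over 1200 bp windows centred on nucleosomes of 2 sets, which the study lists as Pol V stabilized and SWI3B stabilized. The members are 4 of the 20 samples of the series, namely 2 whole-genome bisulfite libraries of swi3b and 2 of Col-0. All came from leaves of Arabidopsis thaliana plants grown for 3.5 weeks, in the Columbia background. The labels name the mutant only as swi3b, so neither the allele nor whether plants were pooled is known here. Bisulfite treatment converts unmethylated cytosines, and the share of reads that stay unconverted at a cytosine is its methylation level. Every value is a combination of both replicates of a genotype, so no difference below has a replicate check or a test. The number of reads behind a level is unknown, and levels are not split into CG, CHG and CHH contexts. The values on the 5 chromosomes stand in for a spread, and describe only these combined libraries.

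SWI3B is a core subunit of plant SWI/SNF complexes, which use ATP to slide or evict nucleosomes. Plants without any SWI3B function are known to die as embryos, and the labels do not say how much function these plants keep. RNA polymerase V (Pol V), whose largest subunit is NRPE1, transcribes noncoding RNA that guides DNA methylation to transposons and other repeats, the process called RNA-directed DNA methylation. IDN2, a protein that binds this noncoding RNA, is known to interact with SWI3B. The comparison thus asks whether cytosine methylation around Pol V and SWI3B nucleosomes depends on SWI3B.

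The Pol V set had 690 windows, of which 600 held a cytosine with a level in both genotypes, and the SWI3B set had 4089 windows, of which 4074 did. Counting each position once gave 29339 shared cytosines in Pol V windows and 571622 in SWI3B windows, with medians of 39.5 and 151 per window. The 2 genotypes had levels at almost the same share of positions. In Pol V windows this share was 4.85% in swi3b and 4.86% in Col-0, and in SWI3B windows 14.6% in swi3b and 14.5% in Col-0. The 2 sets had 2543 cytosine positions in common, each with the same value in both. Most cytosines were unmethylated in both genotypes, with 81.5% of those in Pol V windows and 96.8% of those in SWI3B windows at 0. Labels could be checked for nrpe1, in which Pol V windows averaged 0.304% over the 24065 cytosines with a level in all 3 genotypes, against 2.91% in Col-0. No such check exists for swi3b in methylation levels.

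Methylation was slightly lower in swi3b than in Col-0 in both sets, and on all 5 chromosomes. Pol V windows averaged 3.82% in swi3b and 4.09% in Col-0, a difference of -0.269 percentage points, with chromosome values from -0.532 on chromosome 2 to -0.0234 on chromosome 4. Over the 24065 Pol V cytosines with a level in all 3 genotypes, the difference was -0.205 points, lower on 4 of 5 chromosomes. SWI3B windows, which were nearly unmethylated, averaged 0.201% in swi3b and 0.224% in Col-0, a difference of -0.0230 points that lay between -0.0310 on chromosome 2 and -0.0137 on chromosome 3. With cytosines measured in only 1 genotype included, the gap was wider, at 4.03% in swi3b and 4.83% in Col-0 (-0.798 points) in Pol V windows and 0.212% in swi3b and 0.268% in Col-0 (-0.0558 points) in SWI3B windows. As a ratio, swi3b had 0.934 times the Col-0 level in Pol V windows and 0.898 times in SWI3B windows. Fewer cytosines had a level above 0 in swi3b, a share that also depends on the unknown number of reads. In Pol V windows 14.4% were above 0 in swi3b and 16.3% in Col-0, and in SWI3B windows 1.75% in swi3b and 2.13% in Col-0. The pattern of methylation over the windows was shared by the genotypes. Across windows with at least 10 shared cytosines the Pearson correlation was 0.954 over 526 Pol V windows and 0.956 over 4051 SWI3B windows, and across single cytosines it was 0.877 and 0.831. Cytosines of a window share libraries and neighbours, so these are descriptions.

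Single cytosines moved in both directions, with more lower than higher. A difference of at least 10 points was used as the size of a call, without a test. In Pol V windows 1267 cytosines were at least 10 points lower in swi3b, which is 4.32% of the shared cytosines, and 969 were at least 10 points higher, which is 3.3%. Set against only the 5438 cytosines above 0 in either genotype, these were 23.3% lower and 17.8% higher. In SWI3B windows 1555 cytosines were lower, or 0.272%, and 1142 were higher, or 0.2%. Of the 18120 cytosines above 0 there, they made up 8.58% and 6.3%. Lower calls outnumbered higher calls by 298 in the Pol V set and by 413 in the SWI3B set.

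Averaged over whole windows, the differences were small in both directions. Overlapping windows were counted separately here, so some cytosines entered more than 1 window. Among Pol V windows with at least 10 shared cytosines, 198 were lower in swi3b, 173 were higher and 155 were at 0 in both genotypes. Only 3 of the 526 were at least 10 points lower (0.57%) and 3 at least 10 points higher (0.57%). In the SWI3B set 1747 windows were lower, 1764 higher and 540 equal, with 1 window at least 10 points lower (0.0247%) and 0 at least 10 points higher (0%). The excess of lower windows lay among the methylated ones. Of the 93 Pol V windows with a mean of both genotypes of at least 10%, 60 were lower and 33 higher, and they averaged 20.6% in swi3b and 21.6% in Col-0 (SD of the window differences 6.07 points). Of the 35 such SWI3B windows, 25 were lower and 10 higher, at 15.9% in swi3b and 17.9% in Col-0 (SD 5.31 points). SWI3B windows with a mean of 1% to 10% were at 3.71% in swi3b and 4.30% in Col-0, with 78 lower and 47 higher. The 3891 SWI3B windows under 1% stood at 0.0331% in swi3b and 0.0328% in Col-0, with 1644 lower and 1707 higher.

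**Figure D1:**
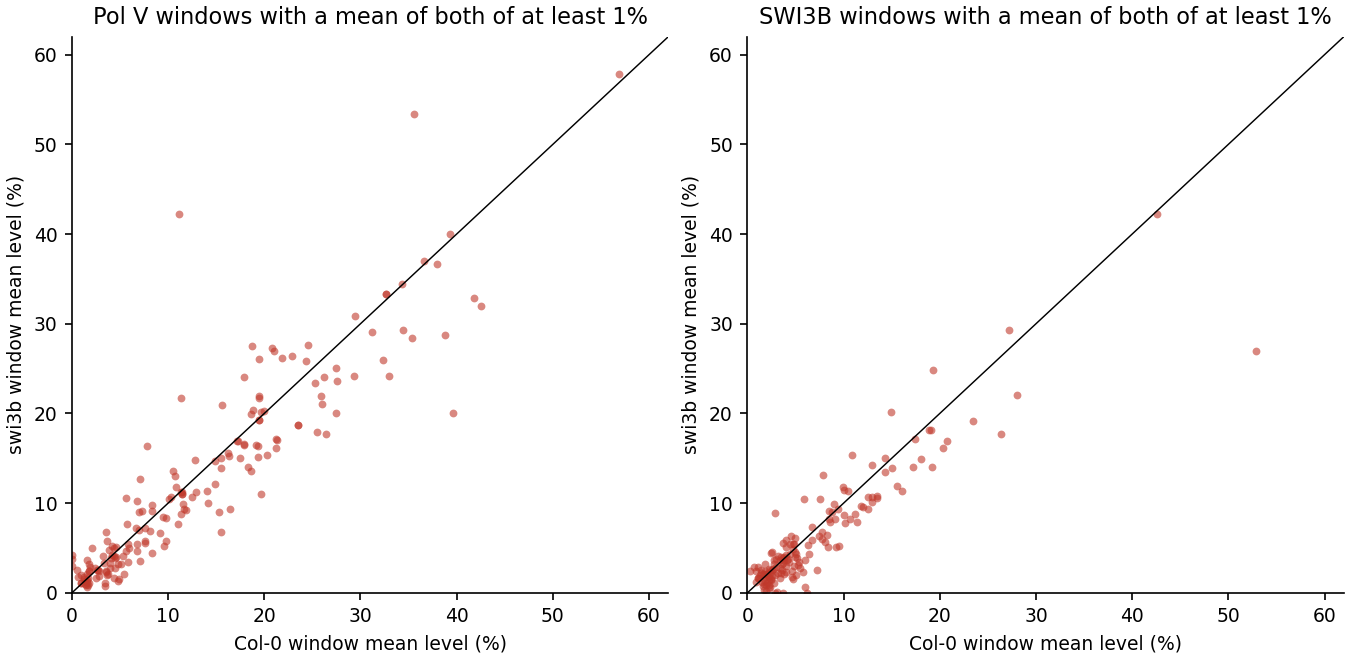
Mean methylation level (%) of each window in swi3b (vertical axis) against Col-0 (horizontal axis), for windows with at least 10 shared cytosines and a mean of both genotypes of at least 1%; each point is 1 window and the line marks equal levels. Points follow the line with a slight excess below it, and the window at 42.2% in swi3b and 11.2% in Col-0 (Pol V set) and the one at 26.9% in swi3b and 52.9% in Col-0 (SWI3B set) stand apart.

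A few windows held most of the methylation and thereby most of the difference. In the SWI3B set, the 41 windows with the highest summed level (1% of windows) held 50.8% of the summed level in swi3b and 50.6% in Col-0. The 203 highest (5%) held 85.8% in swi3b and 88.0% in Col-0. Outside these 203 windows the sign turned, with 0.0282% in swi3b and 0.0265% in Col-0. Pol V methylation was spread over more of its windows, since the 53 highest (10%) held 69.6% in swi3b and 68.9% in Col-0. Outside the 132 highest (25%), Pol V windows were at 0.275% in swi3b and 0.273% in Col-0. In both sets, then, the windows with the highest summed level over both genotypes were on average lower in swi3b, and the near-empty windows gave values close to equal. Pol V windows near centromeres were almost level on average, at 8.18% in swi3b and 8.23% in Col-0. Chromosomes there went both ways, from -0.761 to 1.12 points, and windows with large gains and losses enter that average, as given below.

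Differences were also taken on each side of the nucleosome within single windows. Each window with a mean of both genotypes of at least 2% was split at its midpoint, and the 2 sides were compared where each had at least 5 shared cytosines. Of 105 Pol V windows, 34 were lower in swi3b on both sides, 15 were higher on both sides and 34 went opposite ways. In the other 22, at least 1 side was equal. Of 117 SWI3B windows, 33 were lower on both sides, 11 were higher on both and 36 went opposite ways. In the other 37, at least 1 side was equal. Across these windows the difference on one side had a correlation of 0.0591 in the Pol V set and 0.0508 in the SWI3B set with that on the other side. Sides with as few as 5 cytosines and sides at equal levels both enter these correlations. Low values therefore cannot show whether a window's difference was uneven.

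Which cytosines carried the difference depended on how they were put into classes of level. Classes were 0, above 0 and under 10%, 10 to 50%, and at least 50%. When the Col-0 level set the class, the 778 Pol V cytosines at 50% or more averaged 55.5% in swi3b and 65.5% in Col-0, a difference of -10.02 points. When the swi3b level set it, the 723 such cytosines averaged 66.1% in swi3b and 57.4% in Col-0, a difference of 8.68 points. The sign thus followed the genotype that set the class. Classing by the mean of both left -0.676 points over 674 cytosines. The SWI3B set behaved the same way. Its difference at 50% or more was -13.1 points over 524 cytosines by the Col-0 level, 9.63 points over 470 by the swi3b level and -1.19 points over 436 by the mean of both.

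Cytosines were also classed without their own level, by the Col-0 level of all other shared cytosines of the same window. This class was still set by Col-0 alone, and neighbours come from the same Col-0 libraries. No class by the swi3b level of the neighbours was computed, so a sign that follows Col-0 cannot be told apart here. Pol V cytosines whose neighbours averaged 10 to 50% stood at 19.1% in swi3b and 20.7% in Col-0 (-1.52 points over 4271 cytosines, chromosomes from -2.32 to -0.571). SWI3B cytosines with such neighbours stood at 13.8% in swi3b and 15.5% in Col-0 (-1.63 points over 3236 cytosines, chromosomes from -2.39 to -0.616). For neighbours at 50% or more, the 156 Pol V cytosines averaged 55.8% in swi3b and 56.3% in Col-0, while the SWI3B class held only the 18 cytosines of 1 window, at 26.9% in swi3b and 52.9% in Col-0. With neighbours at 0 the sign was the other one, at 0.0580% in swi3b and 0.0257% in Col-0 in Pol V windows and 0.0280% in swi3b and 0.0220% in Col-0 in SWI3B windows. By contribution, cytosines with a mean of both of 10 to 50% accounted for 57.9% of the Pol V difference and 49.9% of the SWI3B difference. Those above 0 and under 10% accounted for 36.3% and 46.1%. Cytosines at 50% or more added only 5.78% and 3.97%. In the 10 to 50% class, single cytosines had an SD of difference of 18.2 points in Pol V windows and 18.5 points in SWI3B windows, far above the class means of -1.88 and -2.47 points.

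**Figure D2:**
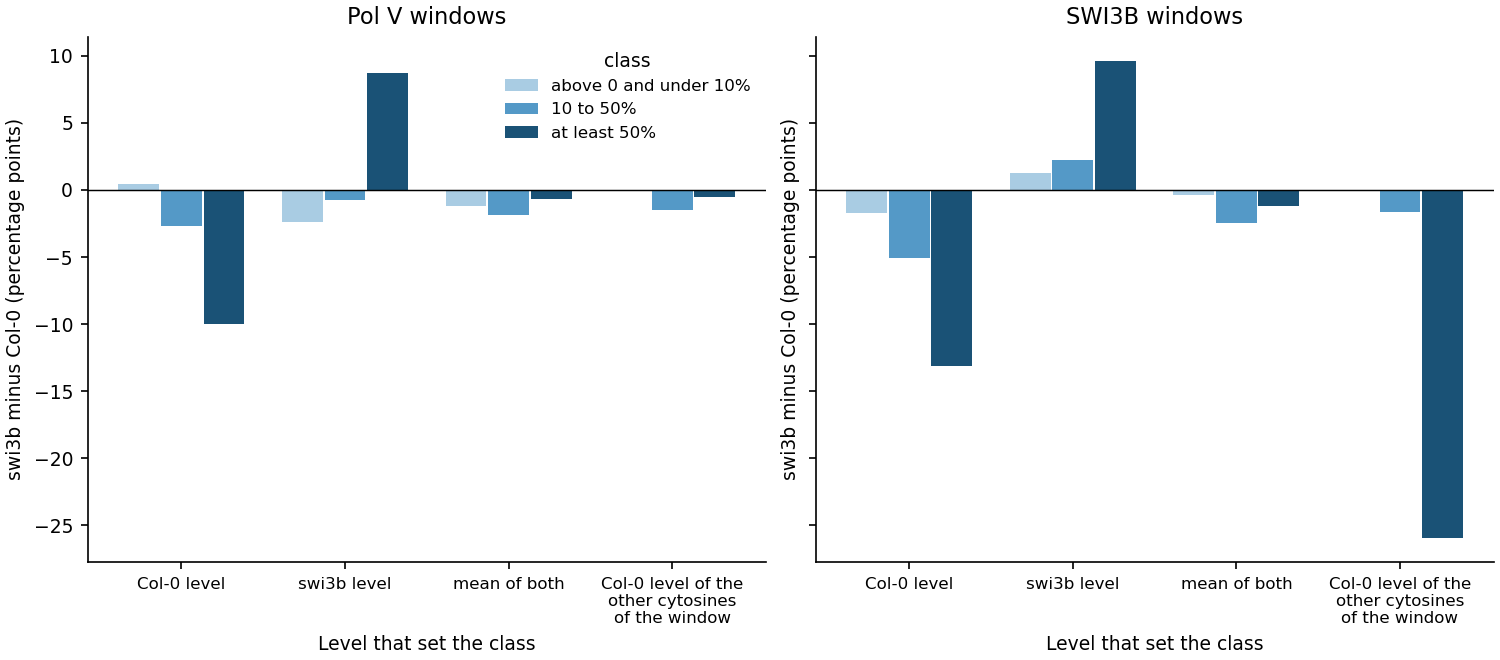
Mean difference in methylation level, swi3b minus Col-0 (percentage points, vertical axis), for cytosines in 3 classes of level (bar shades), with the class set in turn by the 4 levels named under the bars; cytosines in the class at 0 are not drawn. At 50% or more the bar is at -10.02 (Pol V) and -13.1 (SWI3B) points by the Col-0 level and at 8.68 and 9.63 points by the swi3b level, and the bar at -25.9 points holds the 18 cytosines of 1 SWI3B window.

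The nrpe1 level was also used to class cytosines. Mutants in NRPE1 lose RNA-directed methylation, and the cytosines that remain methylated in them are kept by other pathways. In SWI3B windows, the 1458 cytosines with an nrpe1 level of at least 10% averaged 23.4% in swi3b and 25.5% in Col-0, a difference of -2.06 points, lower on 5 of 5 chromosomes. Of these, 745 were lower in swi3b and 560 higher. In Pol V windows, such cytosines were scarce. The 238 of them averaged 23.2% in swi3b and 24.2% in Col-0, lower on 4 of 5 chromosomes. Cytosines under 10% in nrpe1 averaged 2.50% in swi3b and 2.70% in Col-0 in Pol V windows, and 0.107% in swi3b and 0.120% in Col-0 in SWI3B windows. Keeping only windows whose other cytosines averaged at least 10% in Col-0, a choice that uses Col-0 levels, those under 10% in nrpe1 gave 15.5% in swi3b and 16.8% in Col-0 over 2959 cytosines of Pol V windows, lower on 3 of 5 chromosomes. In SWI3B windows they gave 6.75% in swi3b and 7.74% in Col-0 over 2053 cytosines, lower on 4 of 5 chromosomes.

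By distance from the nucleosome midpoint, methylation in Pol V windows peaked on the nucleosome in both genotypes. The innermost 50 bp on either side of the midpoint averaged 16.5% in swi3b and 17.0% in Col-0, and the outermost 50 bp averaged 2.28% in swi3b and 2.44% in Col-0. In the nucleosome core, the central stretch that is wrapped around the histones, levels were 15.7% in swi3b and 16.6% in Col-0. That difference of -0.896 points ranged over chromosomes from -3.40 to 1.04, with 4 of 5 lower. In the outer 300 bp on each side they were 2.50% in swi3b and 2.67% in Col-0, a difference of -0.175 points, lower on 5 of 5 chromosomes. Core minus flank was -0.722 points with an SD over chromosomes of 1.70, and it turned to 0.332 points when each of 174 windows with both parts counted equally. As a ratio of levels, swi3b stood at 0.946 of Col-0 in the core and 0.935 in the flanks. Of 24 bins of 50 bp, 20 were lower in swi3b and 4 higher. Bins near the midpoint rested on the fewest cytosines, 589 at the least, against up to 1896 in the flanks.

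SWI3B windows had the opposite shape, with the lowest levels on and beside the nucleosome. The innermost 50 bp averaged 0.121% in swi3b and 0.144% in Col-0, and the outermost 50 bp 0.291% in swi3b and 0.339% in Col-0. The difference was -0.0231 points in the core and -0.0289 points in the outer flanks, each lower on 5 of 5 chromosomes. Core minus flank was 0.00583 points with an SD over chromosomes of 0.0241, and it was -0.0145 points with windows weighted equally. Of 24 bins, 22 were lower in swi3b and 2 higher, and levels below Col-0 were found in the core and in the flanks of both sets.

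**Figure D3:**
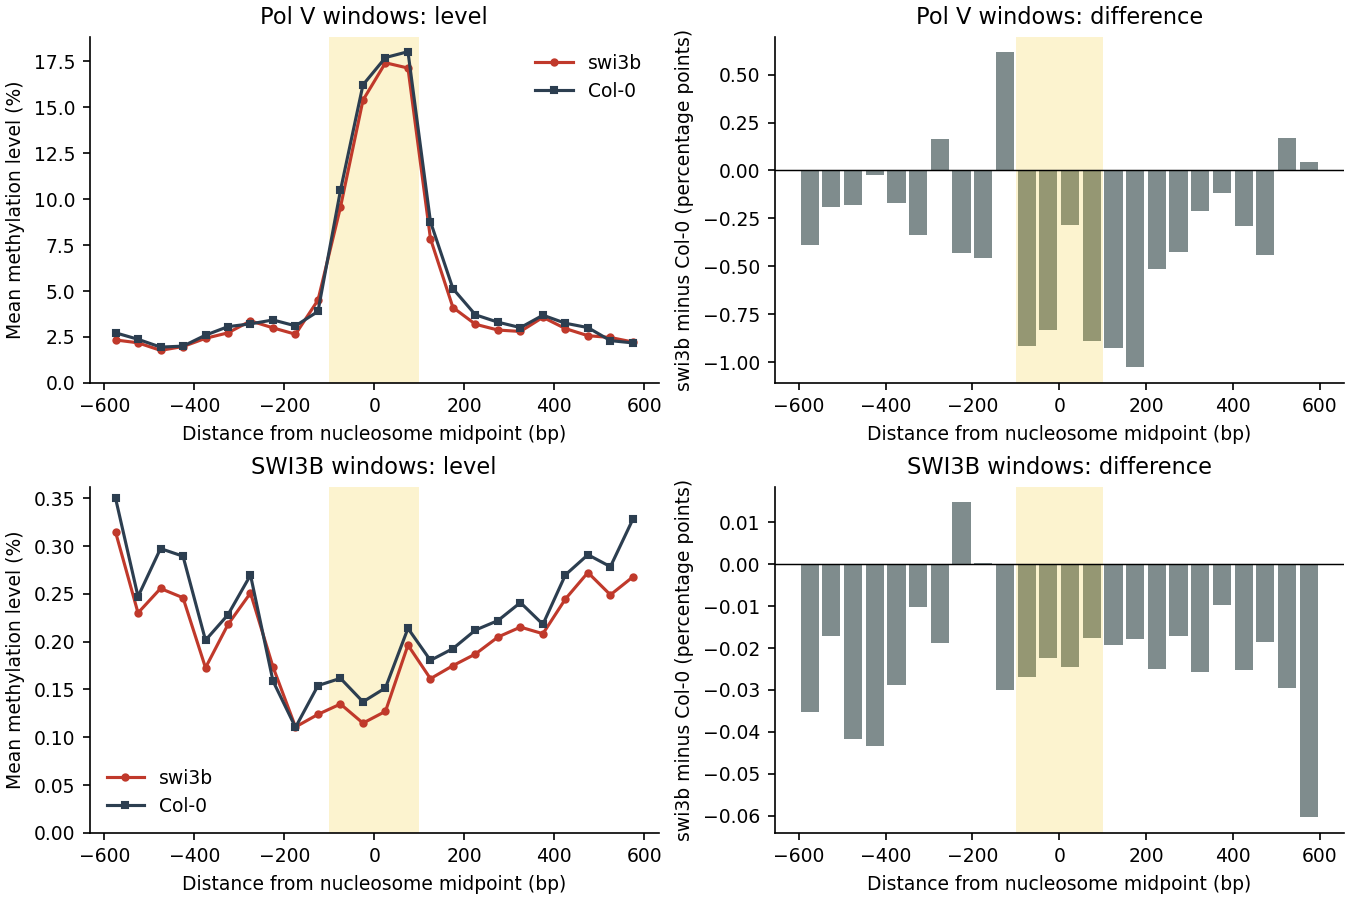
Left, mean methylation level (%) in 50 bp bins of distance from the nucleosome midpoint (bp, negative towards lower coordinates) in swi3b (circles) and Col-0 (squares); right, the difference of the 2 in percentage points, with the 200 bp nucleosome interval shaded. Pol V levels peak on the nucleosome and SWI3B levels are lowest on and just beside it in both genotypes, and 20 of 24 (Pol V) and 22 of 24 (SWI3B) bins lie below 0 on the right, on axes of different scale.

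Along the chromosomes, SWI3B windows differed most near the centromeres. Pericentromeric regions are rich in silenced transposons and heavily methylated in Arabidopsis. Within 3 Mb of the approximate centromere, 44755 cytosines of SWI3B windows averaged 0.863% in swi3b and 1.04% in Col-0, a difference of -0.177 points, lower on 5 of 5 chromosomes. Farther out, levels were 0.145% in swi3b and 0.155% in Col-0, a difference of -0.00992 points, lower on 4 of 5 chromosomes. Near minus far was -0.167 points with an SD over chromosomes of 0.140. Without the windows with the largest loss and gain, an alternative chosen after seeing the data, it was -0.155 points. Cytosines near a centromere were 7.83% of those in SWI3B windows and carried 60.2% of the difference of the set, against 36.3% of its summed Col-0 level. By ratio, swi3b stood at 0.830 of Col-0 near and 0.936 far.

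The same held when windows with little methylation were set aside. Of the 58 SWI3B windows near a centromere with a mean of both of at least 2%, 42 were lower in swi3b and 16 higher, at 6.54% in swi3b and 8.24% in Col-0 (SD of window differences 3.93 points). Of the 69 far from one, 41 were lower and 28 higher, at 8.61% in swi3b and 9.06% in Col-0 (SD 2.43 points). The near windows include the one at chr4:5710298-5711497 (-25.9 points, 18 cytosines), described below. Median window differences were -1.15 points near and -0.400 points far. The difference was not steady with distance. Within the innermost 1 Mb, SWI3B windows were at 2.14% in swi3b and 2.11% in Col-0, and between 1 and 2 Mb at 1.11% in swi3b and 1.44% in Col-0. Between 2 and 3 Mb they were at 0.578% in swi3b and 0.694% in Col-0, and beyond 8 Mb at 0.0929% in swi3b and 0.0934% in Col-0.

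Pol V windows showed no such gradient. Near a centromere their 4132 cytosines averaged 8.18% in swi3b and 8.23% in Col-0, with 2 of 5 chromosomes lower, and farther out 3.10% in swi3b and 3.41% in Col-0, with 5 of 5 lower. The near cytosines held 28.4% of the summed Col-0 level of the set and carried 2.85% of its difference. Near minus far was 0.250 points with an SD over chromosomes of 0.735, and it turned to -0.122 points when near meant within 5 Mb. The near values include the windows at chr3:16417042-16418241 (31.0 points, 14 cytosines) and chr5:9048872-9050071 (10.4 points, 54 cytosines). They also include the window at chr4:5611207-5612406 (-10.1 points, 20 cytosines), and all are described below. Without the windows with the largest loss and gain, an alternative chosen after seeing the data, near minus far was 0.136 points. That left out chr3:16417042-16418241 and a far window, and kept the chromosome 4 and chromosome 5 windows. Among windows with a mean of both of at least 2%, those near had 34 lower and 29 higher of 63, at 12.98% in swi3b and 12.91% in Col-0 (SD of window differences 5.74 points). Those far had 70 lower and 30 higher of 100, at 14.3% in swi3b and 15.5% in Col-0 (SD 4.03 points). In bins of 1 Mb with at least 100 shared cytosines, 53 of 95 Pol V bins were lower, 40 higher and 2 equal. The extremes were 5 to 6 Mb on chromosome 4, at 25.1% in swi3b and 27.2% in Col-0, and 9 to 10 Mb on chromosome 5, at 9.44% in swi3b and 6.00% in Col-0. These bins held 119 and 169 cytosines, and include the windows chr4:5611207-5612406 and chr5:9048872-9050071 respectively. For SWI3B windows 70 of 116 bins were lower and 46 higher. They spanned a difference of -0.864 points at 15 to 16 Mb on chromosome 3 to 1.40 points at 4 to 5 Mb on chromosome 4.

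**Figure D4:**
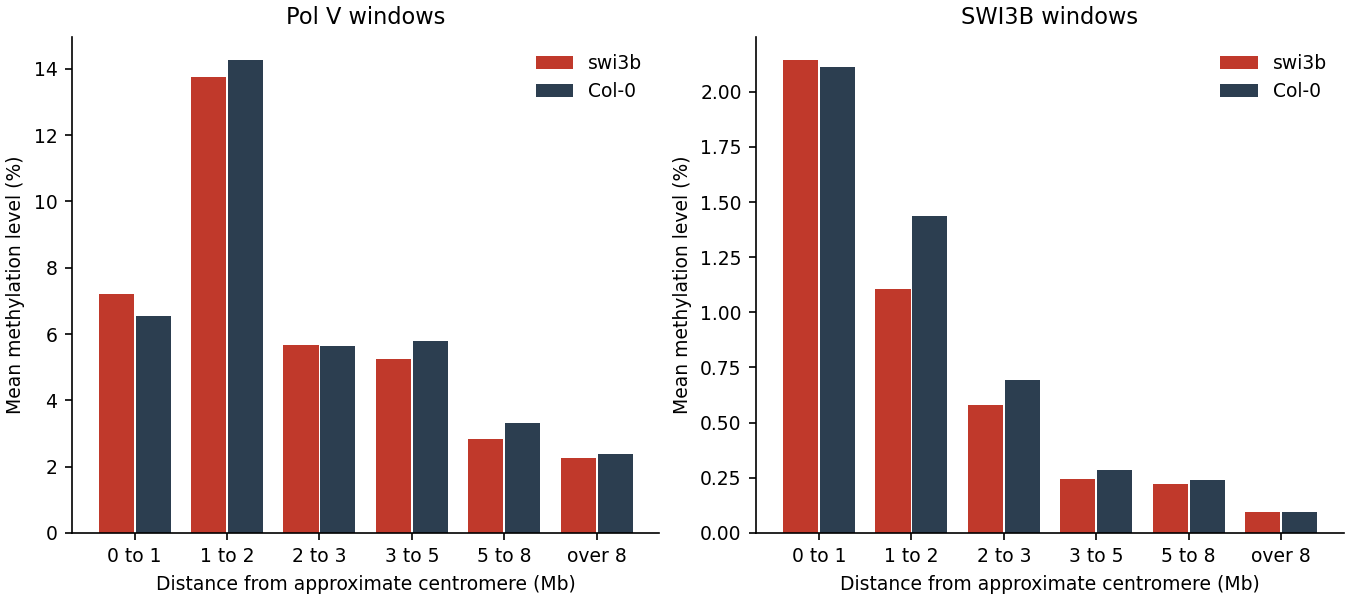
Mean methylation level (%) of shared cytosines in swi3b (left bar of each pair) and Col-0 (right bar), by distance from the approximate centromere (Mb), for both sets on axes of different scale; bars have no error because each genotype is 1 combined value. SWI3B windows between 1 and 2 Mb stand at 1.11% in swi3b and 1.44% in Col-0. The Pol V pair is higher in swi3b at 0 to 1 Mb (365 cytosines) and nearly level at 2 to 3 Mb. Between 1 and 2 Mb it is lower, at 13.8% in swi3b and 14.3% in Col-0.

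Positions were also set against gene entries of the RefSeq annotation. Outside any gene entry, Pol V windows averaged 7.70% in swi3b and 8.24% in Col-0, a difference of -0.540 points, lower on 5 of 5 chromosomes. These cytosines were 42.4% of the set and held 85.5% of the summed level in swi3b and 85.4% in Col-0. In protein-coding genes Pol V windows stood at 0.767% in swi3b and 0.812% in Col-0, lower on 3 of 5 chromosomes. SWI3B windows lay mostly in protein-coding genes, with 86.3% of cytosines, at 0.0843% in swi3b and 0.0888% in Col-0. The 10.4% outside gene entries were at 0.836% in swi3b and 0.968% in Col-0, a difference of -0.132 points, lower on 5 of 5 chromosomes. Pseudogenes, many of which are transposon remains, stood at 1.85% in swi3b and 2.10% in Col-0 in SWI3B windows, lower on 4 of 5 chromosomes.

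Windows were named by rule, taking in each set the 3 lowest and 3 highest differences and the 2 highest Col-0 levels among windows with at least 10 shared cytosines. This gave 14 distinct windows, with coordinates in TAIR10. Since the rule used the differences, their values are a description. In 9 of the 14, no shared cytosine lay in the nucleosome core, so those values belong to the surroundings of the nucleosome.

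The lowest difference of all was in the SWI3B set at chr4:5710298-5711497, between the entries of ARGAH1, which encodes an arginase, and AT4G08910. Its 18 shared cytosines averaged 26.9% in swi3b and 52.9% in Col-0, and all 18 were lower in swi3b. They lay within 164 bp, at 334.5 to 497.5 bp from the midpoint, and had medians of 26.1% in swi3b and 54.7% in Col-0. Single differences there ran from -55.4 to -0.278 points. In nrpe1, 13 of these cytosines had a level, and all were at 0. With cytosines measured in only 1 genotype included, the window stood at 26.04% in swi3b and 34.8% in Col-0, a difference of -8.74 points.

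In the Pol V set, the window at chr3:10509442-10510641, between CSLC04, which encodes a glucan synthase for xyloglucan, and AT3G28190, had 10 shared cytosines at 20.04% in swi3b and 39.7% in Col-0. Of these, 9 were lower in swi3b and 1 equal, and over all measured cytosines the window was at 17.6% in swi3b and 29.9% in Col-0. The window at chr2:7580882-7582081, between RHA3A, a RING-H2 finger gene, and the pseudogene AT2G17460, averaged 32.0% in swi3b and 42.6% in Col-0 over 63 cytosines. There 36 were lower, 18 higher and 9 equal, and its 28 core cytosines stood at 46.6% in swi3b and 55.2% in Col-0. The median difference of that window was only -2.78 points, against a mean of -10.6, so part of its cytosines carried the difference. At chr4:5611207-5612406, which overlaps AT4G08790, 20 cytosines averaged 28.7% in swi3b and 38.8% in Col-0, but all measured ones 25.7% in swi3b and 29.7% in Col-0 (-4.02 points).

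The 3 highest differences of the Pol V set rested on 14, 10 and 54 cytosines. At chr3:16417042-16418241, between AT3G44940 and AT3G44950, 14 cytosines averaged 42.2% in swi3b and 11.2% in Col-0, the highest difference of the Pol V set at 31.0 points. In that window 13 of 14 were higher in swi3b, and all 14 lay 397.5 to 599.5 bp from the midpoint. Its medians were 44.9% in swi3b and 11.1% in Col-0, and over all measured cytosines it was at 25.8% in swi3b and 15.2% in Col-0, a difference of 10.6 points. At chr5:24185972-24187171, between AT5G60050 and AT5G60060, 10 cytosines within 64 bp averaged 53.4% in swi3b and 35.6% in Col-0, with 8 higher. At chr5:9048872-9050071, between AT5G25920 and AT5G25930, 54 cytosines averaged 21.7% in swi3b and 11.3% in Col-0. That difference depended on which cytosines were counted, since over all measured cytosines the window was at 20.8% in swi3b and 21.2% in Col-0.

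**Figure D5:**
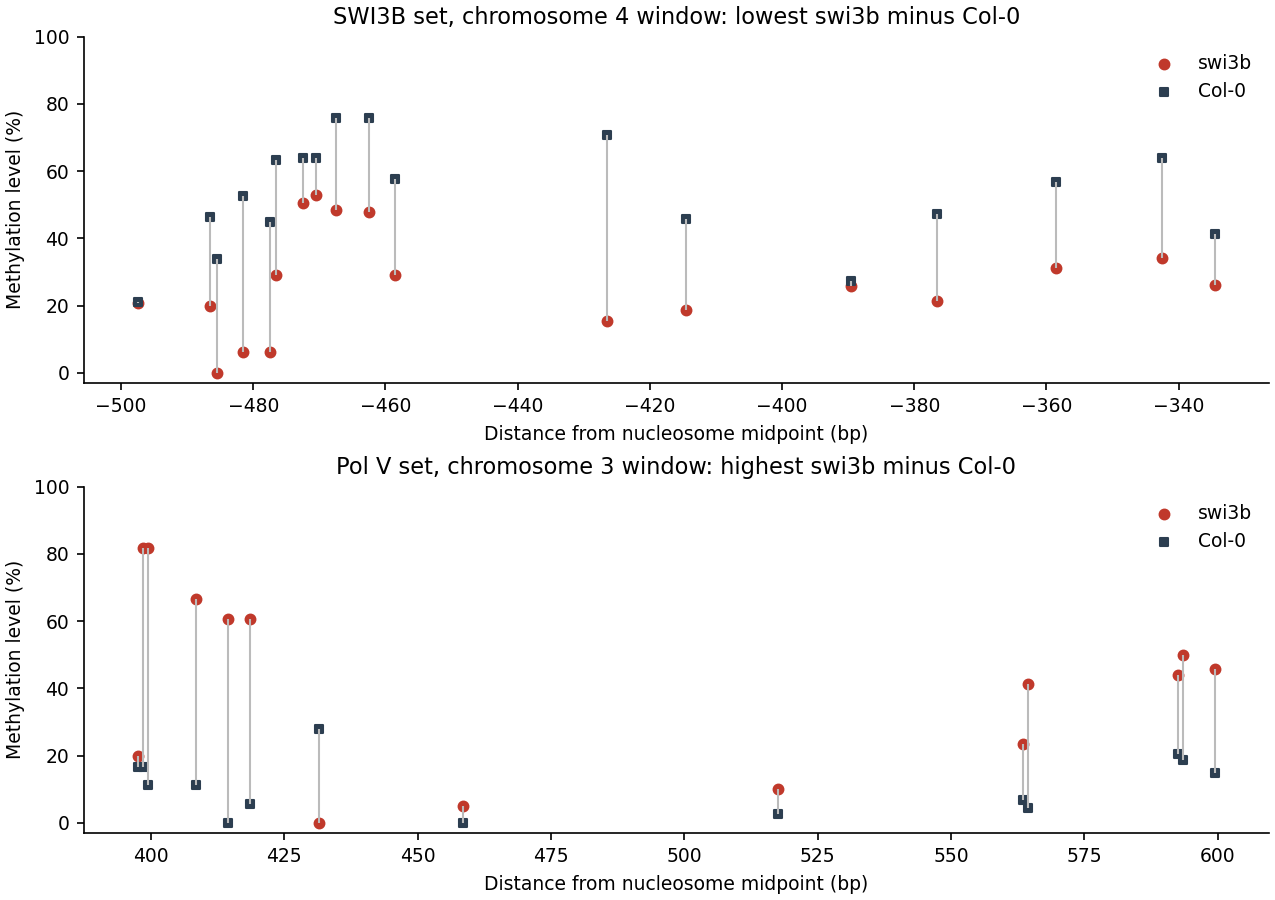
Methylation level (%) of single shared cytosines in swi3b (circles) and Col-0 (squares) against distance from the nucleosome midpoint (bp, negative towards lower coordinates), joined by a line per cytosine, in 2 windows chosen for their difference. In the chromosome 4 window all 18 cytosines are lower in swi3b, and in the chromosome 3 window 13 of 14 are higher.

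Among SWI3B windows the other low differences were smaller. At chr1:13259803-13261002, between PUM10, a gene of the Pumilio family of RNA-binding proteins, and the pseudogene AT1G35760, 19 cytosines averaged 17.8% in swi3b and 26.4% in Col-0, with 15 lower. At chr5:24434948-24436147, between AT5G60750 and AT5G60760, all 27 cytosines were at 0 in swi3b and averaged 6.23% in Col-0, where 7 were above 0. The highest difference of the set, at chr3:21607443-21608642, overlapped AT3G58415, and its 85 cytosines averaged 8.88% in swi3b and 2.84% in Col-0. Only 12 of the 85 were higher in swi3b and 71 were equal, and its 20 core cytosines were all at 0 in both genotypes. The other high differences, at chr3:20258353-20259552 in AT3G54730 and at chr4:2447418-2448617 over the long noncoding RNA AT4G04995, were 5.45 and 5.33 points. Over all measured cytosines both of these had the other sign, at 13.7% in swi3b and 15.3% in Col-0 for the first and 6.12% in swi3b and 7.62% in Col-0 for the second.

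Of the windows named for the highest Col-0 levels, those at chr2:7580882-7582081 (-10.6 points) and chr4:5710298-5711497 (-25.9 points) are also largest losses, given above. The other 2 had nearly equal levels in both genotypes over their shared cytosines. At chr4:2814742-2815941, between the pseudogene AT4G05526 and IBR1, a gene of indole-3-butyric acid metabolism, the 113 cytosines averaged 57.9% in swi3b and 56.9% in Col-0. Its 72 core cytosines stood at 68.1% in swi3b and 65.7% in Col-0, and the 29 cytosines with a level in nrpe1 averaged 3.57% there. In the SWI3B set, the window at chr1:24884413-24885612 lay in LIG6, which encodes a DNA ligase. Its 130 cytosines averaged 42.2% in swi3b and 42.6% in Col-0, and its 29 core cytosines 56.8% in swi3b and 57.9% in Col-0. Unlike the Pol V window, it kept methylation in nrpe1, at 35.6% over 106 cytosines. Over all measured cytosines the LIG6 window stood at 39.9% in swi3b and 36.6% in Col-0. These 2 windows rested on 113 and 130 cytosines, whereas the 4 largest differences of the 14 windows rested on 10 to 18. Windows with many cytosines could also differ, as shown by 2 chosen after their values were seen. A Pol V window with 179 cytosines was at 29.3% in swi3b and 34.4% in Col-0, and a SWI3B window with 194 was at 14.0% in swi3b and 19.2% in Col-0.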

How the data were processed

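Methylation was measured by whole-genome bisulfite sequencing in 2 swi3b and 2 Col-0 libraries, grouped by sample title. The deposited tables hold, per the labels, a fraction between 0 and 1 or no value at each position of a window, made by the authors from both replicates; how these were combined, the coverage minimum and the cytosine context are not given in the sources used here. The submitters' processing notes name Bismark, methylKit and TAIR10. Fractions were multiplied to percent. For means over cytosines, each cytosine with a level in both genotypes was counted once, at its nearest midpoint. Values per window used all shared cytosines of that window. Since 65 Pol V and 494 SWI3B windows overlapped the next, some cytosines entered more than 1 window value. Window starts were read as counted from 0 and are printed 1-based. Depth is unknown, so no interval is given. Centromeres were placed at 15, 4, 14, 4 and 12 Mb on chromosomes 1 to 5. Gene names come from RefSeq's TAIR10.1, taken to have the same nuclear chromosomes as TAIR10, which was not checked here; the split by gene entries was added after seeing the data. The rule for named windows and the alternatives (class limits, widths, weights, left-out chromosomes and windows) and the members were chosen with earlier results of these data known. Python 3.11.15 with numpy 2.4.6, pandas 2.3.3 and matplotlib 3.10.9 was used. The code was also run on simulated data with the same depth in both genotypes. The error allowed for the mean of a set was larger than the SWI3B difference, so that run does not bear on differences of that size.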

Additional observations from a re-analysis of the deposited data

How the results depend on the processing

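For 8 differences, 88 alternative values were computed, of which 64 moved by less than the SD over chromosomes, 18 moved by more and 6 turned sign. The cause was not tested. Many alternatives left out 1 chromosome, which can hardly move a value by more than that SD. For core minus flank, the SD (1.70 Pol V, 0.0241 SWI3B) exceeded the value itself (-0.722 and 0.00583). The 64 thus say little about how stable the values are. For 4 shares of cytosines, all 12 alternative values differed by over 1.5 times. With all cytosines measured in each genotype, the window difference was -0.798 points in the Pol V set and -0.0558 in the SWI3B set. Over cytosines above 0 it was -1.45 (Pol V) and -0.724 (SWI3B), over the Pol V core -0.896, and without the top 1% of SWI3B windows, an alternative chosen after seeing the data, -0.0122. For cytosines at 50% or more, the Pol V difference was 8.68 points by the swi3b level, -0.676 by the mean of both, -1.65 by nrpe1 (5 cytosines) and -0.495 by neighbours. With the class limit at 20% it was -6.14, at 80% -17.3, and by neighbours at 20%, added after seeing the data, -2.69. The same SWI3B values were 9.63, -1.19, -5.16 (166 cytosines), -25.9, -8.62, -10.3 and -3.25. Core minus flank turned to 0.332 (Pol V) and -0.0145 (SWI3B) with windows weighted equally, and to -0.000118 without chromosome 4 (SWI3B). Near minus far turned to -0.122 (Pol V) within 5 Mb. Shares of cytosines lower by 5 points, by 20 points and, above 0 only, by 10 points were 6.78%, 1.73% and 23.3% (Pol V) and 0.556%, 0.0995% and 8.58% (SWI3B); shares higher were 5.32%, 1.17% and 17.8% (Pol V) and 0.434%, 0.0632% and 6.30% (SWI3B). No paired analysis was possible because the tables hold no column per replicate. The split by cytosine context was not run, since it needs a genome. Of 33 alternative values for named windows, 8 moved by more than the SD over methylated windows and 4 turned sign. These 4 came from counting all measured cytosines, an alternative chosen after seeing the data, and were -0.404 (Pol V, chromosome 5) and -1.60, -1.50 and 3.33 points (SWI3B, chromosomes 3, 4 and 1).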

Other observations

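Cytosines with a level in only 1 genotype gave a wider gap than shared ones. In Pol V windows, the 8653 cytosines measured only in swi3b averaged 4.74% there, and the 8755 measured only in Col-0 averaged 7.30% there. In SWI3B windows, the 85207 measured only in swi3b averaged 0.282% and the 80623 measured only in Col-0 averaged 0.574%. These are different cytosines, and whether they differ in depth or context was not tested.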
